A study of Mus musculus with 11 samples.

Results

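Vascular smooth muscle cells of the mouse cerebral cortex numbered 432 of 50625 kept cells (0.853%). They were picked in each cell from counts of unique molecular identifiers (UMIs), the tags that mark each captured RNA molecule. A member had at least 6 UMIs summed over Acta2, Tagln and Myh11, at most 3 summed over the endothelial genes Cldn5 and Flt1, and at most 5 summed over the fibroblast genes Dcn, Col1a1 and Col1a2. A kept cell had more than 500 and fewer than 6000 detected genes and less than 25% of its UMIs from mitochondrial genes, which retained 50625 of 54646 barcodes. Because these 8 genes chose the members, their levels are given below as descriptions with no test.

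The study profiled dissociated, myelin-depleted cortex of C57BL/6 mice with droplet single-cell RNA sequencing of transcript 3′ ends. There were 4 Juvenile libraries (postnatal day 10), 3 Adult libraries (7 to 11 weeks), 2 Aged libraries (18 months) and 2 libraries from mice with experimental autoimmune encephalomyelitis (EAE), a model of autoimmune brain inflammation. The EAE mice were females of 7 to 11 weeks, immunized with a myelin oligodendrocyte glycoprotein peptide in Complete Freund's Adjuvant, given pertussis toxin and taken at the peak of disease, whereas the other 3 groups were untreated, so adjuvant and toxin cannot be told apart from the disease. Tissue of 6 mice (Juvenile and Adult) or 3 mice (Aged and EAE) was pooled before each capture, brains were cleared of meninges by dabbing, and the methods name female mice unless stated otherwise.

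Smooth muscle cells wrap arteries, arterioles and larger veins and set vessel diameter. Force comes from smooth muscle actin sliding on smooth muscle myosin, which works once calcium and calmodulin have activated the kinase that phosphorylates the regulatory light chain. Pericytes are the neighbouring mural cells of capillaries and share part of this programme, and serum response factor drives many contractile genes through a promoter element called the CArG box.

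The label was checked first. Myl9, the regulatory light chain of smooth muscle myosin and a marker that the selection did not use, had at least 1 UMI in 406 of 432 members (94.0%, exact 95% interval 91.3% to 96.0%), against 3.20% of 9458 microglia and 3.48% of 21516 endothelial cells picked by their own genes. Myl9 sets members apart from pericytes less clearly, at a median log2 ratio of 1.53 over libraries once cells with markers of another type were left out. Among the members left, 30 had under 0.5% of their UMIs from Acta2, Tagln and Myh11. Of these 30, 29 had a Myl9 UMI, but 27 had one of Vtn and 17 one of Kcnj8, which are pericyte genes. Acta2, smooth muscle α-actin, ranged from 8206 to 14924 CPM, which is a gene's UMIs per 1000000 UMIs of the summed cells, over the 11 libraries, and Tagln, the actin-binding transgelin, from 4065 to 12655. All 3 contractile genes were detected together in 53.2% to 96.8% of the members of a library, lowest in Juvenile 3 and Juvenile 4. At the lower edge of the selection, the 33 cells with 5 summed UMIs and otherwise passing had 781 CPM of Myl9 and 1497 CPM of the pericyte gene Vtn, and the 22 members with 6 UMIs had 477 and 271 CPM. The members with 7, 8 and 9 UMIs (12, 6 and 13 cells) had 1608, 1514 and 616 CPM of Myl9 and 1961, 3028 and 547 CPM of Vtn.

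Not every member matched the label. Of the 432, 45 carried at least 2 UMIs of the ciliated ependymal genes Tmem212 and Ccdc153, and 14 carried at least 3 UMIs of Cx3cr1, P2ry12 and Tmem119, which mark microglia. Further, 7 held at least 10% of their UMIs in Ttr of choroid plexus, and 5 held at least 5% in haemoglobin. The 45 ependymal-marked members held no Myh11 UMI and 195 CPM of Myl9, whereas the 361 members without any of these marks held 1173 and 7753 CPM. Foxj1, an ependymal gene that did not pick the 45, was at 880 CPM in the 45 and 1.32 CPM in the 361. The 45 were unevenly spread, with 14 of 47 members in Juvenile 3, 12 of 33 in Juvenile 4, 7 of 97 in Juvenile 1 and at most 3 in any other library. The 361 members without any of these marks held 92.9% of the Acta2, Tagln and Myh11 UMIs of the population. Total counts of called genes in the Juvenile and EAE comparisons below are also given without the 71 others, a setting chosen after seeing the data and called the screened members. Counts within gene lists are mostly given for all members only. Aged 1 kept 9 screened members, below the minimum of 10, so fits of screened members dropped it and had 1 Aged unit, the spread coming from the other groups.

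The libraries yielded 97, 88, 47 and 33 members (Juvenile 1 to 4), 11, 22 and 31 (Adult 1 to 3), 13 and 24 (Aged 1 and 2) and 31 and 35 (EAE 1 and 2), with median depths of 4621 to 5386 UMIs in Juvenile, 1630 to 3502 in Adult, 2959 and 3251 in Aged and 3018 and 3218 in EAE members. Juvenile 1 and 2, Juvenile 3 and 4, and Adult 2 and 3 differed less than other pairs in their endothelial cells (chi-square per degree of freedom 1.85, 2.74 and 1.72, against 11.4 to 22.7 for the other pairs of the same group in Juvenile and Adult). In the members themselves Juvenile 3 and 4 (4.996) were hardly more alike than Juvenile 1 and 4 (5.14). Each of the 3 pairs was summed, which left 8 units, 2 in each group, and p-values measure the spread between units. Any pair of libraries shared at most 1.53% of the barcodes of the smaller library. Adult 1 stood apart, with 11 shallow members and 302 pericytes, and Aged 1 carried 76261 CPM of haemoglobin in its members.

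Promoter sequences are shown for Myl9, the marker outside the selection, for Asb2, 1 of 2 genes with a box among the 40 that were lower in Juvenile and have a listed promoter (5%), picked after its values were seen, and for Sncg and Pln, the 2 genes with the lowest adjusted p in Juvenile against Adult below. Each is the 250 bases before the transcription start, 5′ to 3′ on the gene's strand, from RefSeq on GRCm38.p6, and capitals mark a CArG box found by script. Myl9 spans chr2:156775214-156775463 on the plus strand, with the box starting 161 bases before the start. Asb2 has 2 listed starts on the minus strand, and the one shown, chr12:103356002-103356251, has the box 64 bases before it, while the window of the other, chr12:103338391-103338640, holds none. Sncg (chr14:34374670-34374919, minus strand) and Pln (chr10:53337436-53337685, plus strand) hold no box in this window. By the gene positions given below, which are from GENCODE and not RefSeq, the starts of Sncg and Pln lie inside these windows.
Myl9: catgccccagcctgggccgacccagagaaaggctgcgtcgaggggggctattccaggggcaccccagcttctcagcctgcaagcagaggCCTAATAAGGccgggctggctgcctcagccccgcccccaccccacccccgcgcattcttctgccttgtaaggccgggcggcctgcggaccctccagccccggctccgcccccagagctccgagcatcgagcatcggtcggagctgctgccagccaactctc
Asb2: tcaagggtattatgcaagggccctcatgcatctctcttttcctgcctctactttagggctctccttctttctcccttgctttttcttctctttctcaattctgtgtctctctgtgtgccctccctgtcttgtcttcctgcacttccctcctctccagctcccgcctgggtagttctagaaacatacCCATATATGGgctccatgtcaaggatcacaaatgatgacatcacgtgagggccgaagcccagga
Sncg: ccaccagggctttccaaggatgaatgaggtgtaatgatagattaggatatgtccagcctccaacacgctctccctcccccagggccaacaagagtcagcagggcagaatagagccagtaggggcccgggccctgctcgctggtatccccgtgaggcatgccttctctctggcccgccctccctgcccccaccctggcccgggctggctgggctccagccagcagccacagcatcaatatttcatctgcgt
Pln: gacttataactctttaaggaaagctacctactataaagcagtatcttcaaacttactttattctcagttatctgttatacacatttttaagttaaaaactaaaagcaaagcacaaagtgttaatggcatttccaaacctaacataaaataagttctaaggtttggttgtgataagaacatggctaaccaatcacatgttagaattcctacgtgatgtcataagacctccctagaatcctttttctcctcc

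The CArG box was read on both strands as exactly CC, then 6 bases of A or T, then GG. In these windows it occurred in 439 of 27025 genes (1.62%). Among 24 contractile genes with a listed promoter it occurred in 6 (25%), namely Myl9, Myl6, Fhl1, Fhl2, Ldb3 and Vcl, and among 20 pericyte genes in none. The windows of Acta2, Cnn1, Lmod1, Mylk and Tpm2 were read as well and held no exact box. Near matches were not counted. The Acta2 window holds ccctatatgg and ccttgtttgg, which have a C or a G among the 6 middle bases. A match describes letters only and says nothing of binding. Promoters of Tagln, Myh11 and Actg2 were not used here.

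The members formed a gradient from cells with many pericyte transcripts to cells with fewer. The 361 screened members were divided by the share of their UMIs that came from Acta2, Tagln and Myh11, into bands of under 0.5% (30 cells), 0.5% to 1% (47), 1% to 2% (92), 2% to 4% (152) and 4% or more (40). Cnn1, calponin 1, an actin-binding protein of mature smooth muscle, lay at 6.72 CPM in the lowest band, 24.5 in the middle band and 971 in the highest. Pln, which encodes phospholamban, the inhibitor of the calcium pump of the sarcoplasmic reticulum, went from 6.72 to 689 CPM, and Lmod1, the actin nucleator leiomodin 1, from 26.9 to 684 CPM. Myl9 was at 3903 CPM in the lowest band, 5682 in the middle band and 13257 in the highest.

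Pericyte genes ran the other way across the same bands. Vtn, vitronectin, went from 3923 to 327 CPM, and Kcnj8, a subunit of the ATP-sensitive potassium channel, from 517 CPM to no UMI in 40 cells. Rgs5, a regulator of G-protein signalling found in mural cells of both kinds, went from 14953 to 1574 CPM, while Notch3, the receptor that maintains arterial smooth muscle, stayed between 454 and 770 CPM. Elastin (Eln), the elastic fibre protein of larger arteries, was seen in 1 of 30 cells of the lowest band and in 13 of 40 of the highest. Juvenile cells made up 27 of 30 cells in the lowest band, 54 of 92 in the middle band and 21 of 40 in the highest, so age and position on this gradient overlap in part, and the part of age in these values was not tested. These are values of cells ordered by the genes that chose them and carry no test.

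**Figure D1:**
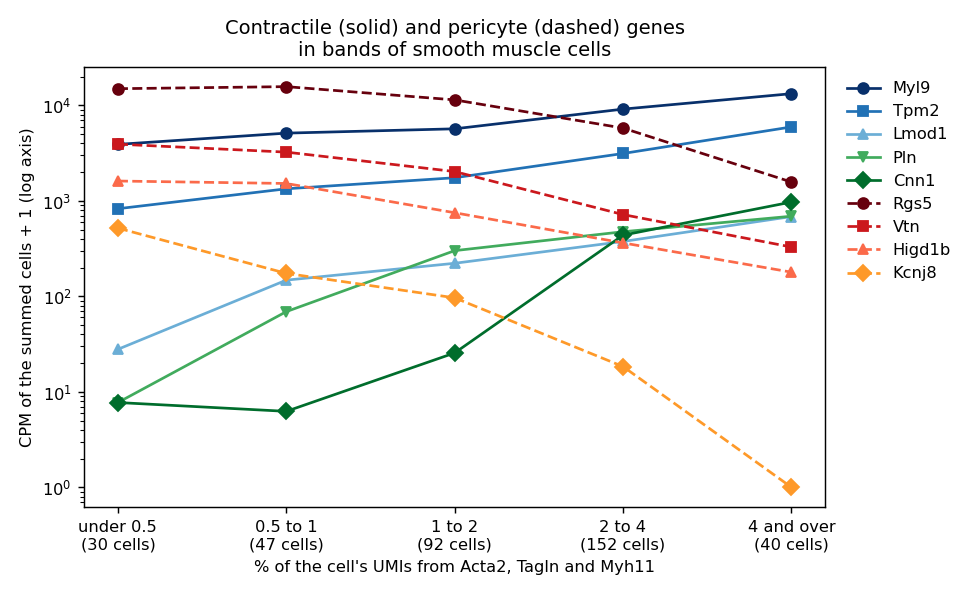
CPM plus 1 (log axis) of 5 contractile genes (solid lines) and 4 pericyte genes (dashed lines) in the 361 screened members, summed within 5 bands of the share of a cell's UMIs from Acta2, Tagln and Myh11; no replicates enter a point. Cnn1 climbs from 6.72 to 971 CPM while Kcnj8 goes from 517 CPM to 0 from the lowest band to the highest.

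Against pericytes, members carried more RNA of most measured contractile genes and of most measured immediate early and heat shock genes. They carried less of most measured pericyte genes, and most other lists were less one-sided. The 1113 pericytes had at least 3 UMIs of Vtn and Kcnj8 and at most 2 of Acta2, Tagln and Myh11, with the same endothelial and fibroblast limits, so this contrast was set by the selection and is described with no test, as the median over 11 libraries of the log2 ratio of CPM plus 10. Of the 1113 pericytes, 886 carried none of the marks of another type used above. The Ttr mark was met by 181 and the microglia mark by 59. Pericytes without such marks were 193 of 302 in Adult 1 and 73 of 105 in EAE 1. Values include all 1113 unless cells with such marks are said to be left out. Pln was at 37.6 to 1196 CPM in members (median 755) and at 0 to 5.30 in pericytes, a log2 ratio of 6.26. Sncg, γ-synuclein, was at 25.1 to 1923 CPM in members (median 837) against 0 to 46.7 in pericytes, a log2 ratio of 4.85. Both were higher in members in 11 of 11 libraries, though the lowest member value of Sncg lay within the pericyte range of other libraries.

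Further genes of the contractile cell followed. Cnn1 had a log2 ratio of 4.80, Tpm2 (β-tropomyosin) 4.42, Palld (palladin, an actin bundler) 4.42, Csrp1 (a LIM protein of the actin skeleton) 4.34, Lmod1 4.30 and Pdlim3 (a PDZ-LIM protein that binds α-actinin) 4.29, all higher in members in 11 of 11 libraries. Rasd1, a small GTPase, at 4.67, Mustn1 at 4.67, Ltbp1, which binds latent TGF-β, at 4.48, Rcan2, a calcineurin regulator, at 4.21, and the secreted protein Crispld2 at 4.78 were also higher in 11 of 11. The ependymal genes Tmem212 (4.47) and Ccdc153 (4.27) ranked among the 15 highest too. Of their UMIs in the 45 ependymal-marked and the 361 screened members, 99.0% and 99.2% lay in the 45. That split was set in advance, because these same genes picked the 45.

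Of 25 measured contractile genes, 17 were higher in members in all 11 libraries and none was lower in all, with a median log2 ratio of 2.30, against 4.78% of all 6864 genes higher and 4.52% lower in all 11 and a median of −0.02. Mylk, the light chain kinase, was at a log2 ratio of 2.92 and Myl9 at 1.90, or 1.53 with screened members and pericytes. Cald1, caldesmon, did not separate the mural types (median 1722 CPM in members and 2179 in pericytes, higher in 4 of 11 libraries), nor did Tpm4 (higher in 5 of 11).

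Genes that receive vasomotor signals differed gene by gene. Ramp1, a subunit of the receptor for calcitonin gene-related peptide, was at a median of 279 CPM in members and 10.8 in pericytes (log2 ratio 3.67, 11 of 11 libraries), and Npy1r, a neuropeptide Y receptor, at 144 and 26.9 (1.98, 9 of 11). Ednra, the endothelin A receptor, was at 102 and 111 CPM (−0.21, higher in 4 of 11). Nrip2, which the gene list groups with Notch signalling, was at 377 and 15.9 CPM (3.98, 11 of 11), while Notch3 itself was at 479.97 and 307 (0.65, 10 of 11). Of the 17 measured vasoactive receptors 1 was higher and 3 were lower in all 11 libraries, against 4.78% of all 6864 genes higher and 4.52% lower.

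Early response genes were also unequal between the mural types. Of 30 measured immediate early and heat shock genes, 20 were higher in members in all 11 libraries and none was lower in all, with a median log2 ratio of 1.78. Over all 6864 genes 4.78% were higher and 4.52% lower in all 11. Fos, a subunit of the AP-1 factor, was at a median of 2021 CPM in members and 274.5 in pericytes, and Btg2 at 2631 and 205 CPM. Klf4, a Krüppel-like factor that represses contractile genes in cultured smooth muscle, was at 239.95 and 16.0 CPM. The 32 genes of this list summed to 12277.5 to 35355 CPM by library in members and 3555 to 9858 in pericytes. They summed to 20469 to 37205 CPM in microglia and 9955 to 28767 in endothelial cells, so high levels were not particular to members. Genes of this kind are also known to respond to tissue dissociation.

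On the pericyte side, Kcnj8 (log2 ratio −4.49) and Abcc9 (−4.52), the pore and the sulphonylurea receptor of the same potassium channel, were both lower in members in 11 of 11 libraries, as were the P-type ATPase Atp13a5 (−4.87), the growth factor pleiotrophin, Ptn (−4.63), Cthrc1 (−3.86) and extracellular superoxide dismutase, Sod3 (−3.58). Kcnj8 and Vtn picked the pericytes, so their order was set in advance, and neither was left out of the list counts below. Pdgfrb, the receptor that recruits mural cells to vessels, was at a median of 271 CPM in members and 900.0 in pericytes. Of 27 measured pericyte genes 16 were lower and 1 was higher in all 11 libraries. Of 39 measured matrix genes 8 were higher and 3 lower in all 11 (median log2 ratio 0.10), and of 31 genes of calcium, potassium and cyclic nucleotide control 7 were higher and 3 lower (0.65). For these 3 lists the shares over all 6864 genes were 4.78% higher and 4.52% lower. Ttr, the secreted transthyretin of choroid plexus, was lower in members as well (−3.09), and this fell to −0.27 with screened cells of both kinds.

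**Figure D2:**
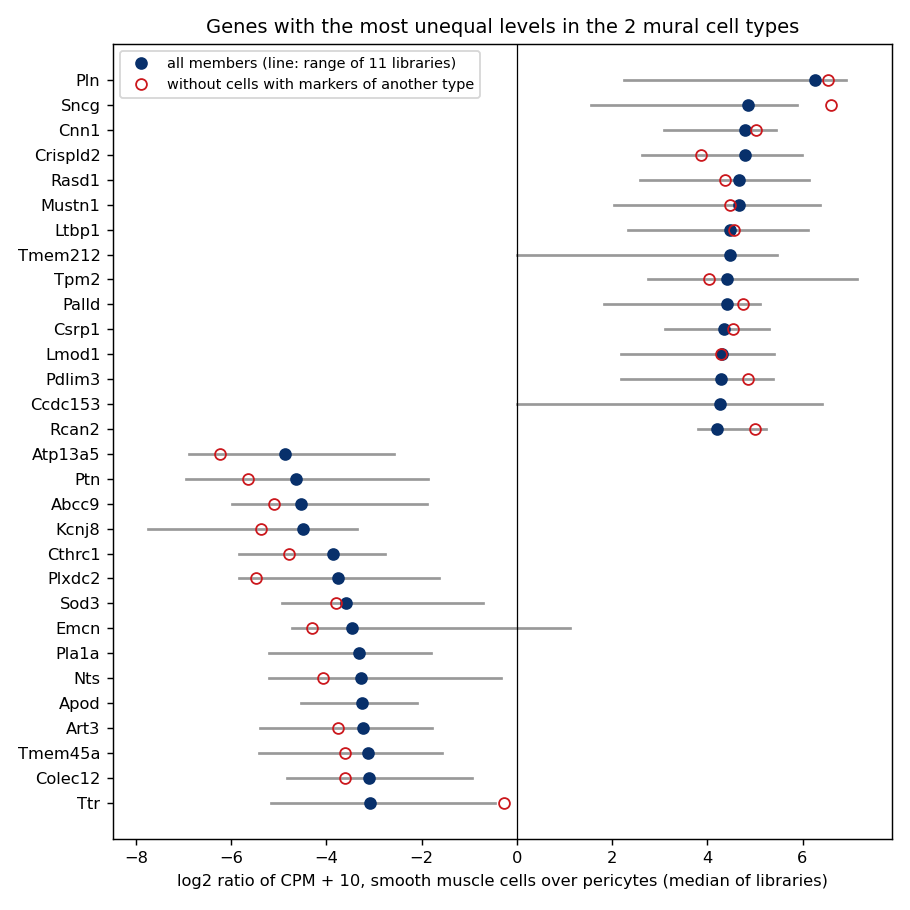
Median log2 ratio (filled points) and range (lines) over 11 libraries of CPM plus 10 in smooth muscle cells over pericytes for the 15 genes with the highest and the 15 with the lowest ratio; open points leave out cells with markers of another type in both populations. Pln (6.26) and Atp13a5 (−4.87) lie at the ends, and Ttr moves from −3.09 to −0.27 without such cells.

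Against all other kept cells the members stood out by Myl9 (log2 ratio 6.98, a median of 6916.5 CPM against 47.3), Tpm2 (6.94), Mustn1 (5.98), Pln (5.97), Mylk (5.69), Rasl11a (5.36), Sncg (5.23), Lmod1 (5.19), desmin, Des (5.10), and Nrip2 (4.98), each higher in 11 of 11 libraries. Rgs5 (4.84) and the adhesion molecule Mcam (4.62) were on the same list. Against pericytes Rgs5 was higher in 3 of 11 libraries (−0.56) and Mcam in 11 of 11 (1.64, or 0.91 screened).

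The share of smooth muscle cells was highest in Juvenile 1 and 2. Members were 3.62%, 3.45%, 1.13% and 0.803% of kept cells in Juvenile 1 to 4, 0.345%, 0.582% and 0.797% in Adult 1 to 3, 0.255% and 0.505% in Aged and 0.373% and 0.432% in EAE. Juvenile and Adult libraries did not overlap, but Juvenile 4 exceeded Adult 3 by less than the counting intervals of both (0.553% to 1.13% and 0.542% to 1.13%, exact 95%). With screened members Juvenile 3 and 4 held 0.720% and 0.462%, within the Adult range of 0.314% to 0.746%, and only Juvenile 1 and 2 (3.10% and 3.13%) lay above it. Over units, the mean was 2.25% ± 1.82 (SD, n = 2) in Juvenile and 0.517% ± 0.243 (n = 2) in Adult (exact permutation test over units, two-sided p = 0.33, the smallest that 2 against 2 allows, and p = 0.143 over 4 against 3 libraries). Aged (0.380% ± 0.177) and EAE (0.402% ± 0.0423) overlapped with Adult. A share of kept cells also depends on how many cells of other types the preparation kept, whose part was not tested.

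Relative to pericytes, members were a larger part in each Juvenile library than in any Adult library. Members made up 63.4%, 62.0%, 54.7% and 47.8% of smooth muscle cells plus pericytes in Juvenile 1 to 4 and 3.51%, 19.6% and 28.2% in Adult 1 to 3, with no overlap. The difference of library means was 39.8 percentage points (exact permutation test over libraries, two-sided p = 0.029, the smallest possible with 4 against 3, and p = 0.0571 with screened cells), and over units the p stayed at that test's limit of 0.33. Whether the libraries of a summed pair came from separate preparations is not given in the sources used here. Both selections use fixed counts of UMIs, and Juvenile pericytes were deeper (medians of 3811 to 4102.5 UMIs against 1474 to 2297 in Adult). They also carried more contractile RNA (26 genes summed to 9301 to 11467 against 3115 to 6793 CPM). With members picked by at least 0.3% of UMIs, Juvenile libraries held 35.7% to 60.3% and Adult 4.43% to 28.2% (exact permutation test over libraries, p = 0.0571). The part of depth in this balance was not tested. Aged libraries held 9.03% and 18.2% and EAE libraries 22.8% and 23.6%, all within the Adult range.

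**Figure D3:**
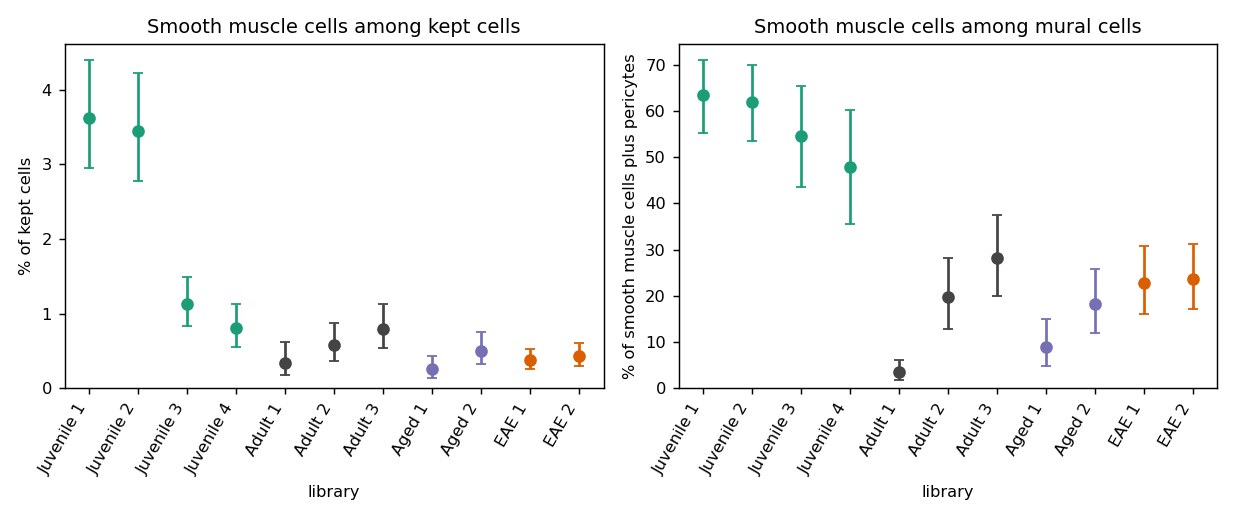
Smooth muscle cells as a percentage of kept cells (left) and of smooth muscle cells plus pericytes (right) in each of 11 libraries, with exact 95% binomial intervals that cover counting error only. Juvenile libraries hold 47.8% to 63.4% on the right, and all others hold 3.51% to 28.2%.

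Juvenile members differed from Adult members in single genes of several lists, among them Sncg, Pln, Asb2 and Lmod1, which were lower, and Actg2, Tpm4, Col4a1 and Col4a2, which were higher. The UMIs of the members were summed in each unit and tested with edgeR's quasi-likelihood test over 2535 genes, of which 2530 are not part of the selection. At an adjusted p under 0.05 (Benjamini-Hochberg over all genes), 74 of 2530 genes were called (2.92%), 25 higher in Juvenile (0.988%) and 49 lower (1.94%). With the screened members 237 of 2750 were called (8.62%), and 71 of the 74 were among them, the exceptions being Cd74, H2-Aa and Malat1. All 74 kept their sign there, and of the 237, 107 were higher (3.89%) and 130 lower (4.73%). DESeq2 called 44 genes, 424 had an unadjusted p under 0.05 in edgeR, and the count was 41 without Adult 2, 31 without Aged 1, 24 without Aged 2 and 39 without EAE 1. Juvenile cells also made up 27 of the 30 screened members in the lowest band of the gradient above. Pln and Lmod1 were at 6.72 and 26.9 CPM in that band and at 689 and 684 in the highest. The part of this mix of cells in the differences between ages was not tested. Each value below is the CPM of the 2 Juvenile units, then the 2 Adult units. With 2 units a group an exact permutation test cannot give p under 0.33, so a lack of overlap alone says little. How many of all genes lack overlap was not counted.

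Sncg had the lowest adjusted p. This gene (chr14:34370274-34374789, GRCm38) encodes γ-synuclein, a small cytosolic protein, and its promoter is printed above. It was at 39.6 and 59.5 CPM in Juvenile units and at 828 and 995 in Adult units, and later at 1722 and 1625 in Aged and 1923 and 1276 in EAE units. The Juvenile units were far below all 6 others and nothing overlapped (log2 Juvenile over Adult −4.27 ± 0.37 SE, adjusted p = 0.000144, −4.75 with screened members). Pericytes carried 1.96 to 46.7 CPM of it in the 8 units.

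Pln (chr10:53337667-53345987) was at 90.0 and 39.6 CPM in Juvenile and at 1147 and 764 in Adult units. Aged units, at 1196 and 986, and EAE units, at 1048 and 755, lay with Adult and apart from Juvenile (log2 difference −3.80 ± 0.42 SE, adjusted p = 0.000906). Mrvi1, a protein through which cyclic GMP-dependent kinase lowers calcium release, was at 54.4 and 37.2 against 127 and 219 CPM (−2.06 ± 0.43, adjusted p = 0.024). Of 23 tested genes of calcium, potassium and cyclic nucleotide control 2 were lower and 1, Rgs5, was higher, with a median log2 difference of −0.86 against 0.05 over all genes.

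Within the contractile list of 22 tested genes, 3 were lower in Juvenile and 2 higher, with a median log2 difference of −0.64. The lower ones were Pdlim3 (69.3 and 59.5 against 223 and 249 CPM), Sorbs2, an adaptor at actin attachment sites (229.6 and 136 against 828 and 545 CPM), and Lmod1 (192 and 134 against 382 and 421 CPM). None of these 3 overlapped between the groups, with log2 differences of −1.92, −1.86 and −1.34 and adjusted p of 0.0207, 0.02 and 0.0494. Asb2, which recruits actin cross-linkers of the filamin family to a ubiquitin ligase in muscle, was outside this list and lower too (15.8 and 37.2 against 319 and 207 CPM, −3.33 ± 0.48, adjusted p = 0.00711). So were Ppp1r12b, a targeting subunit of myosin phosphatase (−1.88), Synm, the intermediate filament protein synemin (−2.37), Palld (−1.64) and Ltbp1 (−2.13). Lmod1 was called in 10 of 24 alternative fits, and Sncg and Asb2 in 24 and 23.

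The 2 contractile genes that were higher in Juvenile were an actin and a tropomyosin. Actg2 (chr6:83512905-83536265), the γ-actin of visceral smooth muscle, had 581 UMIs in Juvenile members and 1 UMI in Adult members, at 468 and 268 against 31.9 and 0 CPM by unit. The pooled ratio was 82.2 with an exact 95% counting interval of 14.7 to 3254 (adjusted p = 0.0207 in the fit), and Aged units held 119.6 and 13.9 CPM and EAE units 0 and 8.98. Adult units were too low to bring Actg2 past the filter on low counts. It entered the test through other units, the Juvenile units among them. Reads of closely alike actin genes may have been split or dropped in counting, so the level of Actg2 is uncertain. Tpm4, a tropomyosin of the actin skeleton, was at 1392 and 974 against 159 and 367 CPM (1.96 ± 0.39, adjusted p = 0.0207), again with no overlap.

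Among other tested genes of the contractile cell, Ppp1cb (log2 difference −1.35) and Dstn (−2.15) were called lower in Juvenile. Myl9, Tpm1, Mylk and Csrp1 did not pass the threshold. Myl9 was at 6259.7 and 5342 CPM in Juvenile and 5351 and 7691 in Adult units, which overlapped (log2 difference −0.20 ± 0.30, adjusted p = 0.792), and Tpm1 at 2844 and 1942 against 2198 and 2453 (0.01 ± 0.31). Mylk was at 881 and 491 against 1593 and 1375 CPM without passing the threshold (−1.12 ± 0.33, adjusted p = 0.103), as was Csrp1 at 1089 and 664 against 1497 and 2258 (−1.15 ± 0.35, adjusted p = 0.115). Among the selection genes, which get no test, Myh11, the smooth muscle myosin heavy chain, was at 756 and 419 against 1879 and 1825 CPM, Acta2 at 11075 and 8362 against 11053 and 13853, and Tagln at 6854 and 4083 against 7231 and 8384. The units of the 2 ages did not overlap for Myh11 or Tagln and overlapped for Acta2.

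**Figure D4:**
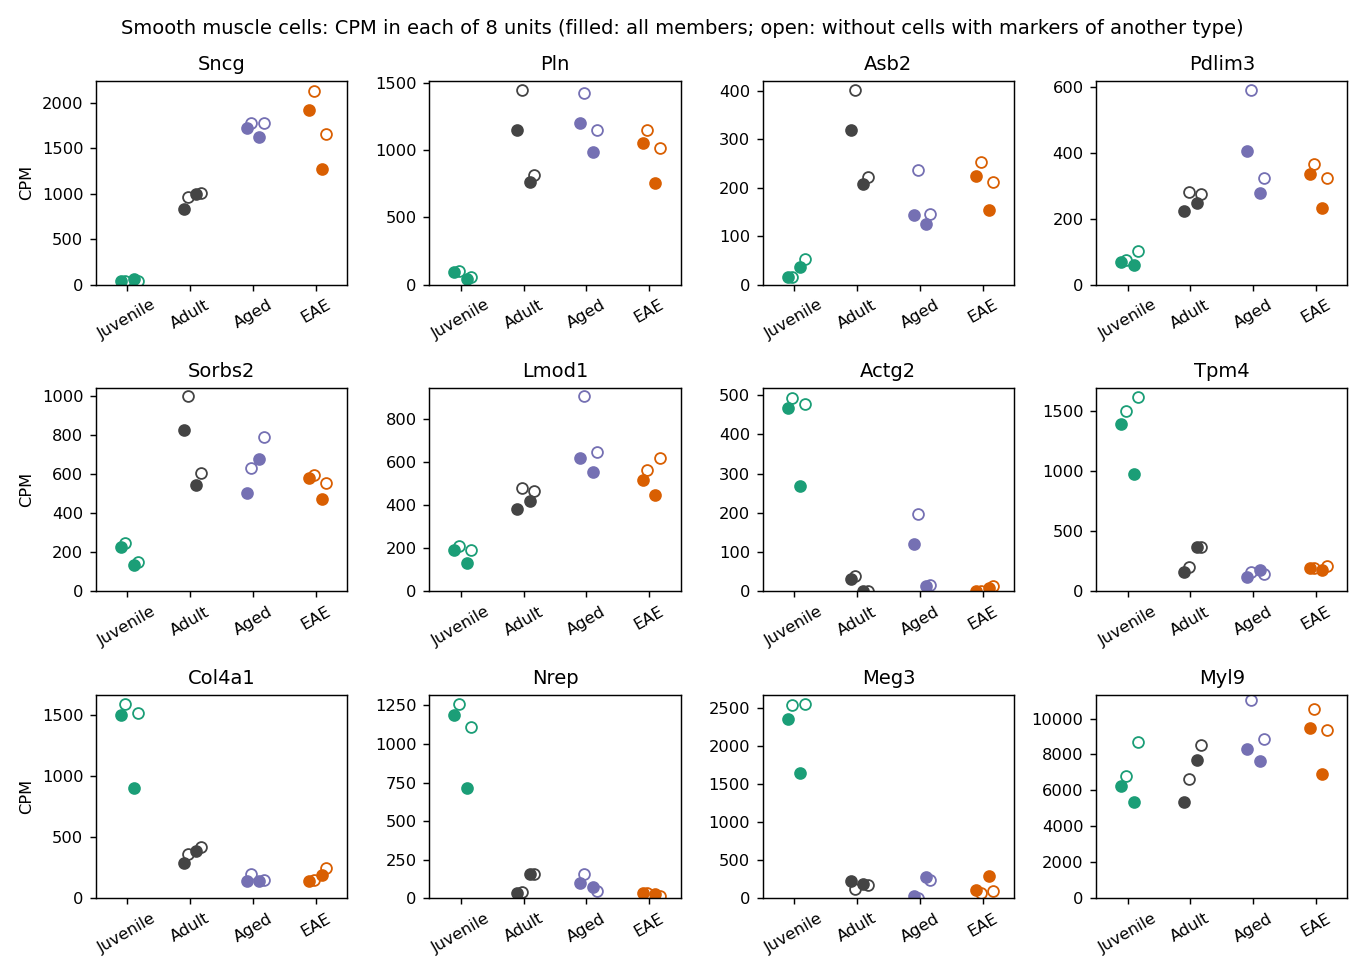
CPM of 12 genes in smooth muscle cells in each of 8 units, 2 in each group, summed over all members (filled points) or over members without markers of another type (open points). Sncg and Pln lie at or under 90.0 CPM in Juvenile and at or over 755 in every other unit (filled points), Actg2, Tpm4, Col4a1, Nrep and Meg3 are highest in Juvenile, and Myl9 overlaps.

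Regulators of the smooth muscle state showed no called difference. None of 10 tested transcription factors, 9 genes of the Notch pathway or 6 vasoactive receptors passed the threshold in edgeR, with medians of −0.17, 0.09 and −0.15. With screened members Zeb2, a zinc finger repressor, and F2r, a thrombin receptor, were higher. Notch3 was at 536 and 436 CPM in Juvenile and 509.7 and 479.9 in Adult units. Rgs5 was at 9374 and 7815 against 3249 and 3443 CPM, higher in both Juvenile units (1.34 ± 0.31, adjusted p = 0.0414), and in pericytes it was at 13627 and 12696 against 1724 and 4696. Rgs5 was also highest in the lowest bands of the gradient, where Juvenile cells are most frequent, and the part of that in its difference was not tested.

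Basement membrane and matrix genes diverged within their list. Col4a1 and Col4a2, the 2 main chains of type IV collagen in basement membranes, were at 1504 and 902 against 287 and 385 CPM and at 1044 and 622 against 159 and 243. Sparc, a collagen-binding matrix protein, was at 3588 and 3749 against 1083 and 1392 CPM, whereas its relative Sparcl1 was at 977 and 1041 against 2771 and 3994. In all 4 the groups did not overlap (log2 differences of 1.75, 1.90, 1.52 and −1.78, adjusted p of 0.0235, 0.0324, 0.02 and 0.016), and of 25 tested matrix genes these were the 4 called. With the screened members 9 of 32 were higher and 2 lower.

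Further genes of varied function were higher in Juvenile members. Mdk, the heparin-binding growth factor midkine, had 273 UMIs in Juvenile and 1 in Adult members (185 and 213 against 0 and 5.93 CPM), a pooled ratio of 38.6 with a counting interval of 6.88 to 1532. C1qtnf6, a secreted C1q and TNF related protein, had 163 UMIs in Juvenile members (114 and 119 CPM) and none in Adult members, so it was at least 7.69-fold higher against a floor of 3 UMIs over the Adult group. Adult units were too low to bring either gene past the filter on low counts, so both entered the test through other units, the Juvenile units among them. Both passed the test, with adjusted p of 0.0199 and 0.0339. Nrep (1188 and 716 against 31.9 and 154 CPM), the fatty acid carrier Fabp5 (312 and 270.1 against 63.7 and 11.9), the prolyl isomerase Ppic (575 and 476 against 63.7 and 83.0) and the imprinted noncoding RNA Meg3 (2355 and 1648 against 223 and 189.6) did so too, with log2 differences of 2.92, 3.70, 2.69 and 3.28. Adult units alone could not bring Nrep, Fabp5 or Ppic past the filter on low counts, so the same limit holds for them. Meg3 stands in the neuron marker list and makes up most of that list's sum in these members, 1517 to 2410 of 1566 to 2502 CPM by Juvenile library and 163 to 226 of 194 to 268 by Adult library.

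Of 28 genes of the cell cycle list, 4 passed the filter on low counts and were tested. Of these 4, 2 (Hmgb2 and Stmn1) were called higher in Juvenile, with a median of 2.02 over the 4. Hmgb2, a chromatin protein, was at 234 and 287 against 0 and 41.5 CPM, Stmn1, the tubulin-binding stathmin, at 238 and 211 against 0 and 29.6, and Cks1b, a subunit of cyclin-dependent kinases outside the list, at 147 and 134 against 0 and 5.93 (1 Adult UMI, pooled ratio 28.7 with an interval of 5.10 to 1140.4). All 3 were called, with adjusted p of 0.0199, 0.0472 and 0.0199. Adult units were too low to bring any of them past that filter, so all 3 entered the test through other units, the Juvenile units among them. Mki67 or Top2a, which mark proliferation, had a UMI in 25 of 212 screened Juvenile members (11.8%, exact interval 7.78% to 16.9%), 0 of 59 Adult members, which allows a share of cells with a UMI of up to 5.08% by the count of 3 and of 6.06% by the exact interval, 1 of 31 Aged and 0 of 59 EAE members. Juvenile cells were deeper (median 4995 UMIs against 2918 in Adult), and after each cell was thinned to 1500 UMIs, leaving out 10 Adult, 6 Aged, 14 EAE and no Juvenile cells, the shares were 14 of 212 (6.60%) and 0 of 49, which allows up to 6.12% by the count of 3 and 7.25% by the exact interval. By library the thinned shares were 4.82% to 10.53% in Juvenile and 0 in each Adult library. The intervals and limits cover counting error over pooled cells only and concern cells with a UMI, not cells that express either gene, and the difference between groups was not tested.

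Some genes lower in Juvenile members belong to other cell types or to immune function. Ly6a (7.92 and 7.43 against 223 and 178 CPM), Ly6c1 (21.8 and 9.91 against 319 and 196) and Itm2a (132 and 136 against 446 and 427) are endothelial markers in cortex, and 3 of 6 tested endothelial markers were called lower with a list median of −2.74. The 15 endothelial genes summed to 1036 to 1644 CPM in Juvenile and 2795 to 4014 in Adult members, and in microglia of the same libraries to 1282 to 1735 and 3332 to 4168. Their part in these 3 genes was not tested. The selection gene Cldn5, a tight junction protein of endothelium, went the same way (87.1 and 76.8 against 223 and 237 CPM). With no Cldn5 or Flt1 UMI allowed in a member the number of called genes was 12, but that setting also left Adult 1 and Aged 1 with 5 cells each, below the minimum of 10, and so 1 Adult and 1 Aged unit.

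H2-K1 and H2-D1, heavy chains of class I antigen presentation, were at 33.6 and 32.2 against 31.9 and 219 CPM and at 112 and 126 against 223 and 468. Adult 1 thus overlapped with Juvenile for H2-K1 and not for H2-D1 (log2 differences of −2.34 and −1.70, adjusted p of 0.0306 and 0.0304). Their sequences are close to those of other class I genes, which makes the split of reads between them uncertain. Lyz2, lysozyme of myeloid cells, was at 10.9 and 4.96 against 63.7 and 142 CPM, and Cd74, the invariant chain of class II, had 1 UMI in Juvenile and 9 in Adult members (pooled ratio 0.0157, counting interval 0.000359 to 0.113, adjusted p = 0.016, and 0.299 screened). Of 29 tested early response and heat shock genes 2 were lower in Juvenile, Btg2 and Hspb1, with a list median of −0.72. Microglia and macrophage markers (16 genes) summed to 269 to 1305 CPM in Juvenile and 766 to 1694 in Adult members, and their part in Lyz2 and Cd74 was not tested.

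Whether a change with age differed between smooth muscle cells and pericytes was tested in 1 edgeR model of both populations, with the unit as a block. Of 6707 genes, 18 were called (0.268%), 8 with a higher (0.119%) and 10 with a lower (0.149%) Juvenile over Adult difference in members than in pericytes. The count varied with the library left out, with 53 calls without Adult 1, 7 without Adult 2 and 9 without Adult 3, while there were 9 without Juvenile 2 or Juvenile 3, 10 without Juvenile 4 and 28 without EAE 2. Igfbp4, a binding protein of insulin-like growth factors, was at 161 and 102 CPM in Juvenile and 191 and 332 in Adult members, but at 235 and 196 in Juvenile and 28.7 and 28.1 in Adult pericytes (difference of log2 changes −3.68). Its change within members was not called (−1.13, adjusted p = 0.206), and only the difference between the populations was called. Its relative Igfbp2 gave a positive difference, at 411 and 458 against 127 and 119 CPM in members and 443 and 712 against 1229 and 1008 in pericytes (2.96), and its change within members was not called either (1.80, adjusted p = 0.0522). Igfbp2 is also in the choroid plexus list, whose 8 genes summed to 43108 to 105876 CPM in Juvenile and 139499 to 219810 in Adult pericytes, and without cells with markers of another type its difference was 2.85 (adjusted p = 0.000437). Atf5, a stress-responsive factor, was lower in Juvenile members (54.4 and 52.0 against 509.7 and 207 CPM) and at 37.3 and 27.1 against 14.4 and 7.68 CPM in pericytes, a difference of −3.92.

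Of 26 tested contractile genes 3 had a lower Juvenile over Adult change in members than in pericytes, and none a higher one, with a list median of −1.28 against 0.16 over all genes. Mylk was at 235 and 238 CPM in Juvenile and 81.1 and 148 in Adult pericytes, the reverse of its order in members (−1.96 ± 0.41 SE, adjusted p = 0.0104), and Tpm2 was at 245 and 181 against 33.8 and 125 in pericytes and 1942 and 1487 against 2198 and 2726 in members (−1.90). Flna, the actin cross-linker filamin A, gave −2.05. Without cells with markers of another type, Mylk, Tpm2 and Flna no longer passed, at −1.17, −1.07 and −1.32 (adjusted p of 0.256, 0.394 and 0.173). Of 25 contractile genes tested there 1, the essential light chain Myl6, was called lower (−1.58, adjusted p = 0.0401). Igfbp4, Igfbp2 and Atf5 still passed, and 51 of 5407 genes were called (0.943%), 37 with a higher (0.684%) and 14 with a lower difference (0.259%). For Sncg and Pln, which pericytes barely carry, the difference between the populations was not called (−1.46 ± 1.31 and −0.54 ± 0.80, adjusted p of 0.863 and 0.929), and Col4a1, Nrep and Tpm4 were higher in Juvenile pericytes as well, with differences of −0.62, −0.55 and −0.73 that were not called.

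Aged members could not be told from Adult members gene by gene. In edgeR none of 2530 genes was called (0%), the smallest adjusted p was 0.919, 117 genes (4.62%) had an unadjusted p under 0.05, and DESeq2 called 0. Sncg was at 1722 and 1625 CPM in Aged units and 828 and 995 in Adult units, with no overlap and no call, and Myl9 at 8325 and 7653 against 5351 and 7691. Lox, the lysyl oxidase that cross-links collagen and elastin, was at 23.9 and 27.8 against 127 and 213 CPM, and Col4a1 at 144 and 139 against 287 and 385, neither of them called (log2 differences of −2.84 and −1.34). The 25 tested matrix genes had a median log2 difference of −0.70 and the 22 contractile genes −0.05, against 0.01 over all genes. The Aged units hold 13 and 24 cells, Aged 1 has 41804 UMIs in all, and Adult 1 is smaller, with 11 cells and 31394 UMIs. For the Aged over Adult change against that in pericytes edgeR called 0 of 6707 genes (0%), with 319 at an unadjusted p under 0.05, 4 calls without Aged 2 and 14 with at least 12 UMIs in a member, which does not show that the populations changed alike.

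In EAE, members carried more B2m, the light chain of class I molecules (chr2:122147686-122153083). It was at 2208 and 2066 CPM in the EAE units, 764 and 492 in Adult, 550.2 and 819 in Aged and 429 and 476 in Juvenile units. Both EAE units were above all 6 others (log2 EAE over Adult 1.89 ± 0.32 SE, adjusted p = 0.0281), also with screened members (1.86, adjusted p = 0.0293). The difference was positive in all 24 alternative fits (1.37 to 2.20) and called in 18, with an edgeR or DESeq2 adjusted p from 0.0027 to 1. The call was lost without EAE 1, EAE 2, Aged 1 or Aged 2, with the Aged and the EAE libraries each summed (6 units), and in cells with no Cldn5 or Flt1 UMI, where the difference was 1.37. The 25 class I presentation genes also summed higher in the EAE libraries than in Adult in microglia (27503 and 27632 against 8539 to 10142 CPM) and endothelial cells (16797 and 17097 against 7264 to 7649 CPM). The 16 microglia and macrophage genes summed to 9084 and 4482 CPM in EAE members and 766 to 1694 in Adult members, and the part of other cells' transcripts in the B2m value was not tested beyond the screen. In all, 6 of 2530 genes were called in edgeR (0.237%), 4 higher (0.158%) and 2 lower (0.0791%), and 5 of 2750 with screened members (0.182%), 2 higher (0.0727%) and 3 lower (0.109%). There were 3 calls without Aged 1 and 3 without Aged 2.

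The class I genes H2-D1 and H2-K1 and the interferon-induced Ifitm3 had higher values in both EAE units without passing the threshold. H2-D1 was at 1200.4 and 1186 CPM in EAE and 223 and 468 in Adult units, H2-K1 at 692 and 808 against 31.9 and 219, and Ifitm3, an interferon-induced membrane protein, at 1668 and 1805 against 382 and 764. The groups did not overlap for any of the 3, yet their adjusted p were 0.106, 0.106 and 0.122. Of 12 tested class I presentation genes only B2m was called, with a list median of 0.73 against 0.01 over all genes. None of 7 tested interferon-induced genes and none of 18 cytokine, adhesion and acute-phase genes was called (medians 0.04 and 0.48), and Isg15, at 142 and 144 against 63.7 and 267 CPM, overlapped between the groups.

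Class II genes rose in EAE over all members, and did not pass with screened members. Cd74 was at 1821 and 1491 CPM in EAE against 127 and 29.6 in Adult units, H2-Aa at 417 and 611 against 31.9 and 35.6, and H2-Ab1 at 376 and 790.5 against 127 and 23.7, with no overlap (log2 differences of 5.05, 3.90 and 3.73, adjusted p of 0.00203, 0.0179 and 0.0346). Adult units alone could not bring Cd74, H2-Aa or H2-Ab1 past the filter on low counts. All 3 entered the test through other units, the EAE units among them. Without cells with markers of another type Cd74 was at 379 and 1576 CPM in EAE 1 and EAE 2 against 160.1 and 33.5, and the adjusted p of the 3 genes were 0.529, 0.142 and 0.57. The log2 differences were then 4.19 ± 1.28, 3.49 ± 0.79 and 3.77 ± 1.40, so the folds stayed large with wider errors. The sum of the microglia and macrophage genes was 3649 and 3635 CPM in endothelial cells of the EAE libraries, and their part in the class II values was not tested.

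Itm2a, a membrane protein and endothelial marker, was the gene that was lower with a measured level, at 81.4 and 80.8 CPM in EAE against 446 and 427 in Adult units (−2.36 ± 0.39 SE, adjusted p = 0.0281, and 0.0038 screened). Juvenile units, at 132 and 136, and both Aged units lay between. In pericytes it was at 72.5 and 113 CPM in EAE and 489 and 453 in Adult units, and the 15 endothelial genes summed to 1475 and 1608 CPM in EAE members against 2795 to 4014 in Adult members. The other lower gene, mt-Nd3, has no UMI in any cell of either EAE library and 1247 to 6198 UMIs in each of the other libraries, so this is not read as a change in these cells. It was the one tested gene with no UMI in both EAE files, and why they lack it is not given in the sources used here. Whether the same cause altered the counts of other genes in the EAE libraries was not tested. Contractile genes were not called in EAE (0 of 22, median 0.19, with 177 genes of all kinds at an unadjusted p under 0.05 and 11 called by DESeq2), for example Myl9 at 9501 and 6916 CPM and Tpm2 at 5086 and 2785 against 2198 and 2726.

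**Figure D5:**
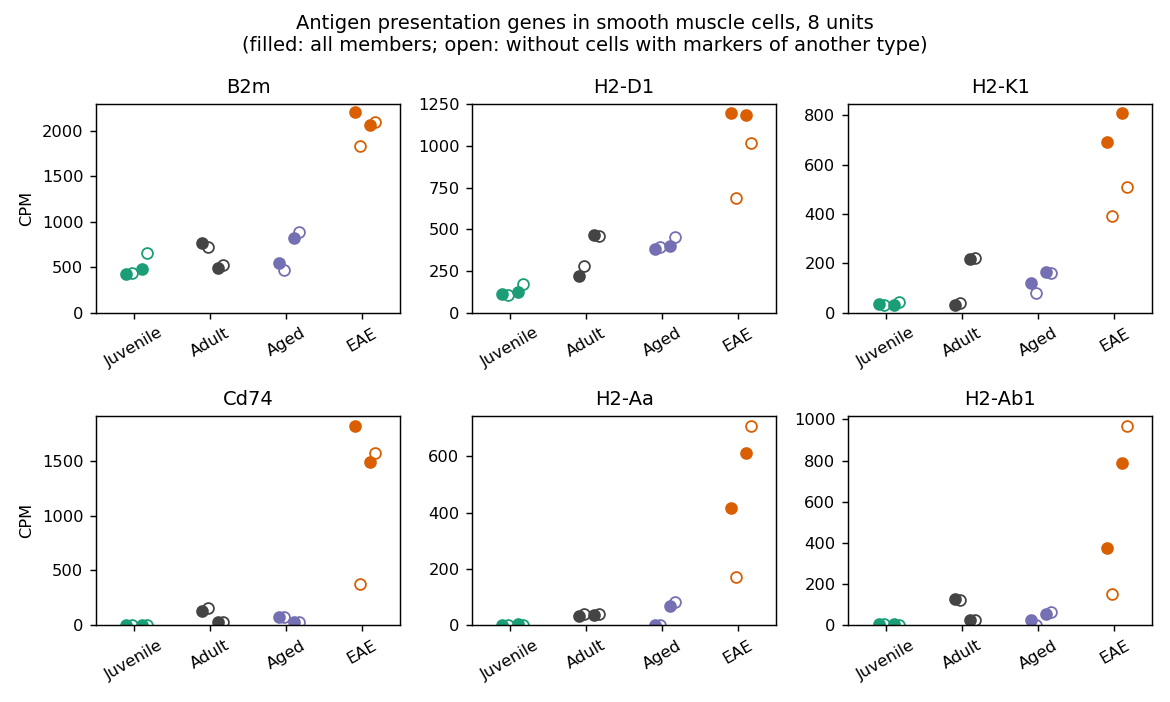
CPM of B2m, H2-D1, H2-K1, Cd74, H2-Aa and H2-Ab1 in smooth muscle cells in each of 8 units, 2 in each group, over all members (filled points) or over members without markers of another type (open points). B2m is at 2066 and 2208 CPM in the EAE units and at most 819 elsewhere (filled points), and Cd74 in EAE 1 drops from 1821 to 379 CPM without such members.

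The EAE difference in members departed from that in pericytes for 6 of 6707 genes (0.0895%), 4 with a higher (0.0596%) and 2 with a lower change (0.0298%), and with screened cells for 19 of 5407 (0.351%), 6 higher (0.111%) and 13 lower (0.24%). The count was 39 without Adult 1, 1 without Adult 2, 12 without Adult 3, 11 without Aged 1, 10 without Aged 2 and 24 without EAE 2. Prss23, a secreted serine protease, was at 458 and 386 CPM in EAE and 446 and 397 in Adult members, but at 24.2 and 17.5 in EAE and 128 and 315 in Adult pericytes (difference of log2 changes 3.32, adjusted p at most 0.0079 under each of 18 alternatives). Aspn, the matrix proteoglycan asporin, was likewise level in members (407 and 359 against 350.4 and 409 CPM) and lower in EAE pericytes (53.9 and 73.3 against 213 and 471), a difference of 2.33. Vstm4 gave 4.46 and Rasl11a 2.80, while Actn1 gave −2.21 and Tubb4b −3.66. In pericytes the choroid plexus genes summed to 244066 and 238885 CPM in EAE against 139499 to 219810 in Adult libraries, microglia genes to 8325 and 7777 against 1151 to 7422, and the 28 pericyte genes to 11314 and 12306 against 17226 to 40270. Without cells with markers of another type Prss23 gave 2.89 (adjusted p = 0.000169), and Vstm4 (4.41) and Rasl11a (2.37) also stayed called. Aspn, Actn1 and Tubb4b were not called there, with differences of 1.62, 0.18 and −0.88 (adjusted p of 0.14, 0.999 and 0.963), in a fit that also lacks the unit Aged 1. For B2m the change in members was not called different from that in pericytes, which were at 2741 and 2509 CPM in EAE and 1174 and 896 in Adult units (0.37 ± 0.39, adjusted p = 0.945).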

How the data were processed

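Cortex cells were captured with the 10x Genomics 3′ v2 kit. Per the methods and processing notes, the authors extracted barcodes with UMI-tools (0.5.3 in the notes), aligned reads to mm10 with STAR (2.5.3a) and counted with featureCounts (1.6.1). The deposited files hold raw UMI counts per gene and cell, not normalized, and other versions stand in the methods. Cells were kept and members picked as described above, CPM is UMIs per 1000000 UMIs of the summed cells, and Scrublet in scanpy 1.11.5 called 818 doublets (1.62%), 4 of them members, which stayed in. Sums per unit of at least 10 cells were tested by quasi-likelihood in edgeR 4.0.16, with TMM factors, filterByExpr and a robust fit of 8 units (4 residual degrees of freedom, biological coefficient of variation 0.302) and Benjamini-Hochberg adjustment. Member sums held 31394 to 1010587 UMIs, so 1 UMI is 31.9 CPM in Adult 1 and 0.990 in Juvenile 1+2. The filter on low counts asks for enough UMIs in as many units as the smallest group holds, so a gene can enter the test by the group where it is high. The fits were tested on simulated data. DESeq2 1.42.0, other gates, units and filters were alternatives. Genes named are list genes and, for each comparison and direction, up to 10 called genes with the largest change, at least 50 CPM and no overlap, and 15 genes per mural contrast. The members and lists were chosen with earlier results of these data known. Positions are from GENCODE M21 on GRCm38.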

Additional observations from a re-analysis of the deposited data

Results flagged for a closer look

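Of 27 values checked within groups of 4 libraries, 1 lay apart from the other libraries of its group: Cd74 in the members of Juvenile 2 was at 2.09 CPM, which is 1 UMI, and the other 3 Juvenile libraries were at 0. Chance sets apart about 1 in 20 such groups.

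The tests of members against pericytes found 18 genes whose Juvenile over Adult change differed between the 2 populations. The change was higher in members, on the log2 scale, for Ackr3 (3.23), Bst2 (2.84), Col8a1 (3.27), Hist1h2bc (1.91), Igfbp2 (2.96), Ndufa4 (1.79), Ptn (3.17) and Rdh5 (2.82). It was lower for Atf5 (−3.92), Flna (−2.05), Igfbp4 (−3.68), Mustn1 (−2.23), Mylk (−1.96), Pde5a (−3.10), Rasl11a (−1.86), Tpm2 (−1.90), Vim (−2.09) and Zak (−2.37). Without cells with markers of another type 10 of the 18 passed, and the adjusted p of the other 8 were 0.173 for Flna, 0.399 for Hist1h2bc, 0.347 for Mustn1, 0.256 for Mylk, 0.62 for Ndufa4, 0.383 for Rasl11a, 0.0734 for Rdh5 and 0.394 for Tpm2. The count was 7 without Adult 2. Under EAE 6 genes differed, namely Aspn (2.33), Prss23 (3.32), Rasl11a (2.80), Vstm4 (4.46), Actn1 (−2.21) and Tubb4b (−3.66). Without cells with markers of another type Prss23, Rasl11a and Vstm4 passed, and Aspn (adjusted p = 0.14), Actn1 (0.999) and Tubb4b (0.963) did not. Without Adult 2 the count was 1.

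Outside the kept cells, 12 barcodes held at least 6 UMIs of Acta2, Tagln and Myh11 and failed the limits on genes or mitochondrial share. They entered no comparison.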

How the results depend on the processing

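Limits first: there were 2 units a group and 11 to 35 members in each Adult, Aged and EAE library. The count of genes called in Juvenile against Adult (74) was 289 with 11 libraries as separate samples, 201 with at least 12 UMIs, 169 with at least 0.3% of UMIs, 12 with no Cldn5 or Flt1 UMI, 237 screened, 312 screened without Adult 1, 132 screened without Juvenile 3 and 4, 16 with 6 units and 44 in DESeq2. Leaving out a library gave 24 to 89 calls, with 41 without Adult 2, 31 without Aged 1, 24 without Aged 2 and 39 without EAE 1. For Aged (0) the counts were 3 with no filter, 1 with at least 12 UMIs, 1 screened without Adult 1 and 4 screened without Juvenile 3 and 4, and 0 to 0 without a library. For EAE (6) they were 11 with 11 libraries, 18 with no filter, 0 with no Cldn5 or Flt1 UMI, 11 in DESeq2 and 23 screened without Juvenile 3 and 4, and 3 to 7 without a library, 3 without Aged 1 or Aged 2.

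Some settings also lose units of under 10 cells: Adult 1 with at least 12 UMIs, Adult 1 and Aged 1 with no Cldn5 or Flt1 UMI, and Aged 1 when screened. Such an arm has 1 unit, assumed to vary like the other groups, so these counts change the gate and the units at once.

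The replicate numbers of the labels do not pair the libraries (correlations −0.296 to 0.273). With the replicate block over 11 libraries 135 genes were called in Juvenile and 11 in EAE, and Aged stayed at 0.

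For members against pericytes, Juvenile (18) gave 61 with 11 libraries, 9 with no filter, 93 with at least 12 UMIs, 9 with no Cldn5 or Flt1 UMI, 51 screened, and 7 (without Adult 2) to 53 (without Adult 1) without a library. Aged (0) gave 14 with at least 12 UMIs and 0 to 4 without a library, 4 without Aged 2. EAE (6) gave 24 with 11 libraries, 11 with RLE factors, 108 with at least 12 UMIs, 39 with no Cldn5 or Flt1 UMI, 19 screened, and 1 (without Adult 2) to 39 (without Adult 1) without a library.

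Differences in share from Adult, in percentage points of kept cells, ranged without a library from 1.56 to 1.81 in Juvenile, −0.309 to −0.0124 in Aged and −0.287 to −0.0613 in EAE, and the EAE value was 0.0723 with no Cldn5 or Flt1 UMI. Of smooth muscle cells plus pericytes they ranged from 33.0 to 45.4 in Juvenile, −10.3 to 4.47 in Aged (4.47 without Aged 1, 2.03 without Adult 3, and 0.205 with at least 0.3% of UMIs) and −0.691 (without Adult 1) to 11.6 in EAE. Of the 74 genes called in Juvenile, 811 values without a library held their sign and 283 lost the call, and of 737 values under other planned settings 197 lost the call and 1 turned, Dst, to 0.0285 with no Cldn5 or Flt1 UMI. Settings using screened members were chosen after seeing the data, and the causes were not tested.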
